A study of Mus musculus with 12 samples.

Results

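The liver makes most of the plasma proteins of blood coagulation and complement, and 37 of their genes were followed here across livers of tumour-bearing mice kept at different housing temperatures. The genes were taken by symbol from a named list, 17 of coagulation and 20 of complement, and each of the 37 had 1 row among the 55421 genes of the count table. Total RNA, depleted of ribosomal RNA, was sequenced from livers of wild-type (WT) mice on day 21 after E0771 cells, a mouse mammary carcinoma line, had been placed in the mammary fat pad. Libraries 1 to 4 are from mice kept at 6 °C, libraries 5 to 8 from mice at 22 °C and libraries 9 to 12 from mice at 29 °C, each after an acclimatisation of 1 week. Every mouse carried a tumour and no group without a tumour is analysed here, so the levels describe tumour-bearing hosts throughout. The growth protocol names both Balb/C and C57Bl6/J hosts and does not assign libraries to either. Whether the 12 libraries are 12 animals is not stated, so a p-value here measures only how these libraries vary.

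In coagulation, a cascade of serine protease precursors ends in thrombin, which cuts fibrinogen into fibrin, while inhibitors such as antithrombin and protein C hold it in check. In complement, the classical, lectin and alternative routes converge on C3, and the terminal proteins C5 to C9 assemble a pore in target membranes. Most of these proteins are secreted by hepatocytes, and several, fibrinogen and C3 among them, are known to rise in the acute phase response to interleukin 6.

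Total counts ran from 7615585 to 19001126 per library, so that 3 counts stood for 0.158 to 0.394 CPM, the count scaled to library size. The label of liver was met by hepatocyte markers: 11 of 12 had a row, none was at 0 in any library, and their summed level was 92430 to 207200 CPM. Libraries 1, 7, 8 and 9 stood apart from the other 8: they held H2-Ea-ps, a class II histocompatibility gene, at 11.8 to 17.1 CPM, and the other 8 held 0 counts of it. Each comparison was therefore also fitted with this division of the libraries as a covariate, called the split term. Fits within those other 8 alone are called the fits without H2-Ea-ps libraries. Gm26917 took 0.667% and 0.605% of counts in libraries 5 and 6 and 1.66% in library 3, against 4.03% to 8.7% in the other libraries. Levels are CPM on library sizes scaled by TMM (trimmed mean of M values), given as mean ± SD over 4 libraries. Fold changes, standard errors (SE) and two-sided p-values come from the quasi-likelihood test of edgeR, with adjustment by Benjamini-Hochberg over all 15006 genes tested, and a gene is called at an adjusted p under 0.05.

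The bases just upstream of 6 of these genes are shown for reference, and their part in the levels was not tested. Of the 6, Mbl2, Klkb1, C9 and F13b had all 29 °C libraries below all 6 °C libraries. The others, Fgb and Fgg, are chains of 1 protein whose counts kept similar proportions. The sequences are RefSeq promoters of the build GRCm38.p6, read 5′ to 3′ on the strand of the gene. Each ends before the start of the gene in both RefSeq and GENCODE. Capitals mark matches to the motifs described after them, on either strand. Mbl2 lies upstream of its gene at chr19:30232678-30232927 on the plus strand, Klkb1 at chr8:45294860-45295085 on the minus strand, C9 at chr15:6445096-6445326 on the plus strand, F13b at chr1:139501457-139501701 on the plus strand, Fgb at chr3:83049864-83050113 on the minus strand and Fgg at chr3:83007474-83007723 on the plus strand.
Mbl2: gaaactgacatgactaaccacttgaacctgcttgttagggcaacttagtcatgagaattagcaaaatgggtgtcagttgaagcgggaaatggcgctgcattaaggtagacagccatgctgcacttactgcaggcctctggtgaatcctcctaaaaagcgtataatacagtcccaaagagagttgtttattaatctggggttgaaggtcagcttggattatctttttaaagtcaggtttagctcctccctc
Klkb1: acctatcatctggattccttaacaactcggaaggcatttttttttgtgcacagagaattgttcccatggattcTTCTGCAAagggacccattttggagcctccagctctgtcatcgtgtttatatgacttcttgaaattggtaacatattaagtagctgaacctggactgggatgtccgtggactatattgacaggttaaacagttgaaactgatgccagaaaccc
C9: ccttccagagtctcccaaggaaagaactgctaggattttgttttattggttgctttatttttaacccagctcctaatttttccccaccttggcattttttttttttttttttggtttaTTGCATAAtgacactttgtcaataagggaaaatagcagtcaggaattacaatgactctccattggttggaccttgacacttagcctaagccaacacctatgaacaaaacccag
F13b: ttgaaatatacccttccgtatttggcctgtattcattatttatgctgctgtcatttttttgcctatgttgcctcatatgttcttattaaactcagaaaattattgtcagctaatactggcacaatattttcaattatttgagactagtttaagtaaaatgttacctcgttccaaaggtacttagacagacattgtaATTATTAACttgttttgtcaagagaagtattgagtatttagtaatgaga
Fgb: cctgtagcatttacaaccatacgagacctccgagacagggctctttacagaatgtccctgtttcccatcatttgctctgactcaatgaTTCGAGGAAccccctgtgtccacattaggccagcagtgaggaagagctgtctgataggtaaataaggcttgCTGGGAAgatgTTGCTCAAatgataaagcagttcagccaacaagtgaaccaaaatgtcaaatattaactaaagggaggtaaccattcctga
Fgg: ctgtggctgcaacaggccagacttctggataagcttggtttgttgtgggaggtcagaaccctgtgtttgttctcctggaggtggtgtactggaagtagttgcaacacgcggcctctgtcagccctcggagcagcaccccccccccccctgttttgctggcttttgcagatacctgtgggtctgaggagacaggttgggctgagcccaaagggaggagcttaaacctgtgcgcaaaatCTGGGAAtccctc

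RefSeq promoters, 250 bases before to 50 after the start, were searched on both strands for 29 of the 37 genes, beside 32841 promoters of the same length. Proc, on chromosome 18, was left out of the search. An HNF1-like motif (GTTAATNAT), named for a hepatocyte transcription factor, was in 4 of the 29, F13b, Fga, C4bp and Hc, and in 0.801% of all promoters. In F13b it began 54 bases before the RefSeq start and in Fga 46 bases before it. A loose C/EBP motif (TTGCNNAA) was in 10 of the 29, with Klkb1, C9, F9, Fga and Fgb among them, and in 10.8% of all promoters. A STAT-like motif (TTCNNNGAA), named for factors that act downstream of interleukin 6, was in 8 of the 29 and in 8.3% of all, and an interleukin 6 element (CTGGGAA) in 7 of the 29 and 11.1% of all. The last pair of motifs can overlap, as they do in F9, Masp2 and Vtn. An HNF4-like motif (CAAAGTCCA, in 0.475% of all promoters) and a full C/EBP-like motif (TTGCGCAA, in 0.183% of all, each also a match to the loose one) were in 0 of the 29. Mbl2 held none of the 6 motifs in this window. A match is a run of letters and not a measured binding site.

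The 37 genes together took 4.71% to 7.24% of all counts in a library (median 5.82%). Levels between genes are compared per kilobase (kb) of merged exons. On that scale C3, the central complement protein, stood highest at 3509.9 CPM per kb on average over the 12 libraries, followed by the fibrinogen chains Fga (3195) and Fgg (3166), then Fgb (1587), Vtn (1089) and Kng1 (740.4). The lowest were Cfb at 1.63, C2 at 10.8, C6 at 11.6 and Pros1 at 17.99 CPM per kb. Of the exon bases, 79.5% in Cfb and 42.8% in C2 are shared with Gm20547, listed at 0, so both levels may miss reads. C3 and fibrinogen thus stood above every protease of the list. In 22 of the 37 genes the highest of the 12 libraries was less than 2 times the lowest. Proc, which encodes the anticoagulant protein C, varied least, from 286 to 377 CPM (coefficient of variation 8.83%).

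**Figure D1:**
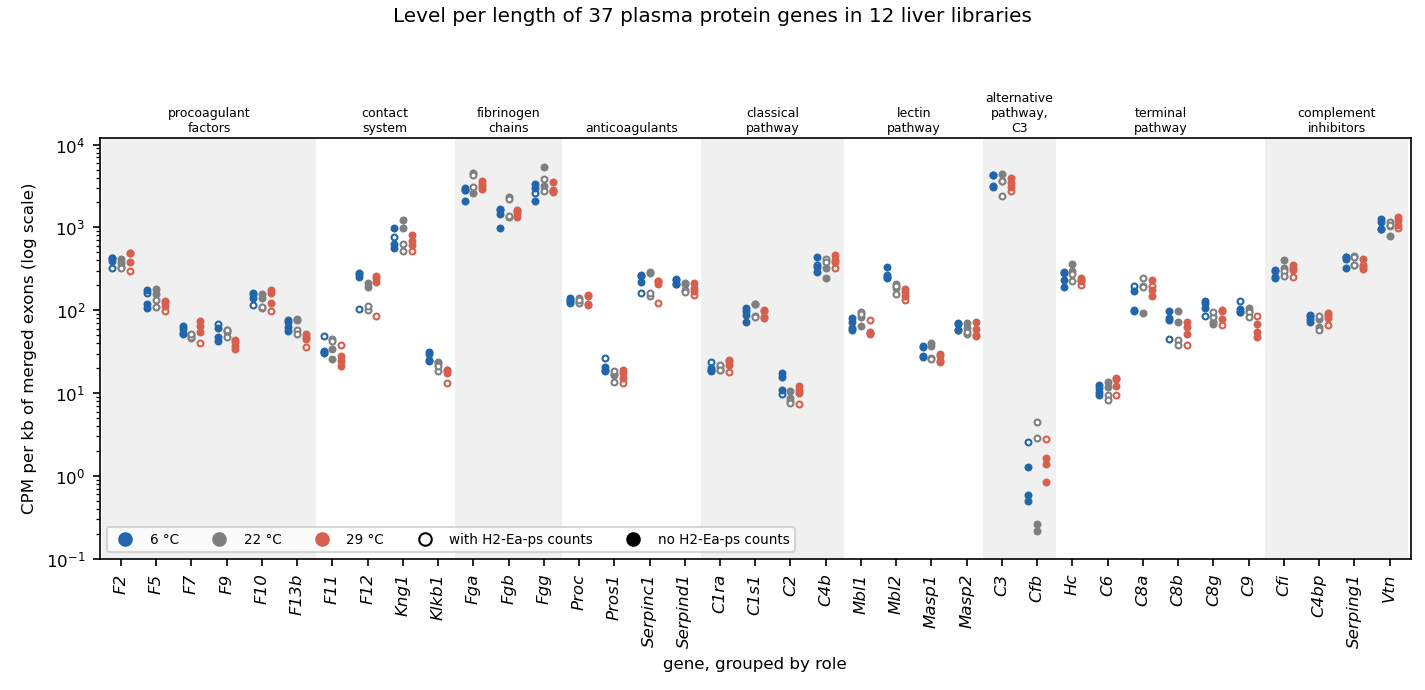
Level of each of the 37 genes in each library, in CPM per kb of merged exons on a log axis, with genes grouped by role, colours for housing temperature and open circles for the 4 libraries with H2-Ea-ps counts. C3, Fga and Fgg lie highest and Cfb lowest, though counts of Cfb may miss reads shared with the overlapping gene Gm20547. For most genes the 3 temperatures overlap.

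Housing at 29 °C against 6 °C spans the full range of temperatures, and here Mbl2 and Klkb1 fell. Mbl2 encodes a mannose-binding lectin that starts the lectin route of complement, and Klkb1 encodes plasma prekallikrein of the contact system. These 2 of 37 genes (5.41%) were called lower, where 1.39% of all genes were, and 0 of 37 were called higher, where 1.13% of all genes were. By an unadjusted p under 0.05 the count was 6 (16.2%), below the 19.4% of all genes, namely Mbl2, Klkb1, C9, F13b, F9 and Pros1, each with a negative fold change. The median log2 fold change of the 37 was -0.16 against 0.000537 over all genes tested, with 14 positive and 23 negative. The 11 hepatocyte markers tested, none of them called, had a median of -0.22 in the same comparison. In bulk liver fewer hepatocytes and less RNA per hepatocyte cannot be told apart.

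In 4 of the 37 genes (10.8%), Mbl2, Klkb1, C9 and F13b, every 29 °C library lay below every 6 °C library, against 6.74% of all genes. In 0 of 37 was every 29 °C library higher, against 6.56% of all genes. With the split term 5 of 37 (13.5%) were called lower, Mbl2, Klkb1, C9, F13b and F9, where 6.23% of all genes were. The calls without that term were lost when any of several single libraries was left out. Over all 25 alternative fits the log2 fold change stayed between -0.879 and -0.695 for Mbl2 and between -0.737 and -0.534 for Klkb1. Mbl2 lost its call when library 3 was left out (adjusted p = 0.0516), and likewise library 4 (0.0733), 10 (0.064), 11 (0.0608) or 12 (0.0604), and with libraries 3, 5 and 6 left out (0.0513). Klkb1 lost its call when library 1 was left out (adjusted p = 0.0574), and likewise library 3 (0.0668), 4 (0.103), 9 (0.0638), 10 (0.112), 11 (0.0686) or 12 (0.0589), and with libraries 3, 5 and 6 left out (0.0665).

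The comparison of 29 °C with 22 °C asks what warm housing changes against the usual animal room. edgeR called 0 of 37 genes in either direction, where 0% of all genes were called, and 5 (13.5%) had an unadjusted p under 0.05, near the 14.9% of all genes: C9, F13b, F9, Mbl1 and Klkb1. DESeq2 and limma voom called 0 of the 37 as well, where they called 319 and 5 genes in all. The median log2 fold change was -0.163, against -0.00369 over all genes, and it was 0.0255 with libraries 3, 5 and 6 left out. F9 alone (2.7% of the genes) had all 29 °C libraries below all 22 °C libraries, against 3.79% of all genes, and 0 had them above, against 3.89%. With the split term F13b (2.7%) was called lower, where 1.88% of all genes were, and it lost that call when library 11 was also left out (adjusted p = 0.0848). Without H2-Ea-ps libraries, where 22 °C is libraries 5 and 6, 5 of the 37 (13.5%) were called. That fit called 2594 genes in all, beside 15006 tested in the fit of all 12 libraries, so calls were common over all genes. The 5 were C9, F13b, F9 and Masp1 lower and Cfb higher.

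The comparison of 6 °C with 22 °C asks what cold housing changes. edgeR called 0 of 37 genes, where 0.0333% of all genes were called, and 5 (13.5%) had an unadjusted p under 0.05, near the 11.9% of all genes: Mbl2, C2, C8g, Pros1 and Klkb1, each with a positive fold change. DESeq2 called Mbl2 alone among the 37 (adjusted p = 0.041), in a fit that called 163 genes in all. Limma voom called 0 of the 37 and 4 genes in all. The median log2 fold change was 0.0289, against -0.0199 over all genes. In 3 of 37 genes (8.11%), Mbl2, Klkb1 and Pros1, every 6 °C library lay above every 22 °C library, against 3.53% of all genes, and in 0 was every 6 °C library lower, against 2.81%. Each pair of these comparisons shares a group of libraries, so the values for 1 gene in different comparisons are not independent.

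**Figure D2:**
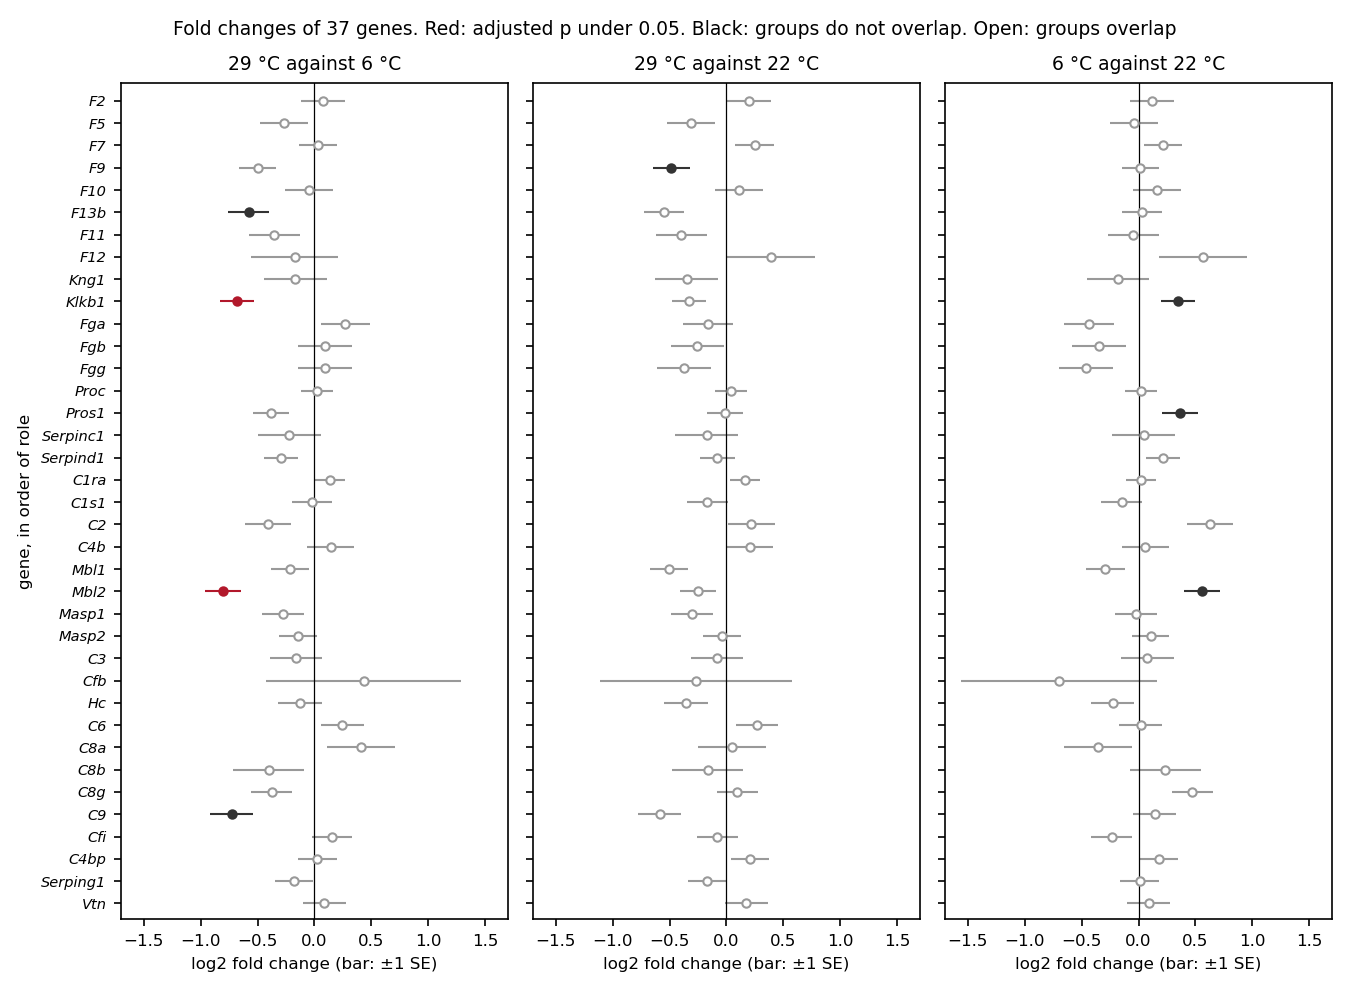
Log2 fold change of each of the 37 genes in the 3 comparisons, with bars of 1 SE and genes in order of role. Red points are called, black points have groups that do not overlap, and open points have groups that overlap: 2 points are red, Mbl2 and Klkb1 at 29 °C against 6 °C.

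The lectin route begins with the collectins Mbl1 and Mbl2, which bind sugars on microbes and activate the proteases Masp1 and Masp2. For Mbl2 the 6 °C libraries stood at 293, 274, 264 and 363 CPM, those of 22 °C at 202, 226, 169.6 and 215 CPM, and those of 29 °C at 145, 197, 179 and 162 CPM. The 6 °C libraries were all above the rest, and the 22 °C and 29 °C libraries overlapped. Mean levels were 298 ± 44.6, 203 ± 24.4 and 171 ± 22.2 CPM (n = 4 each). Between 29 °C and 6 °C the log2 fold change was -0.80 (SE 0.158, adjusted p = 0.0242), a level 1.75-fold lower, and the adjusted p was 0.00254 with the split term. It was -0.25 (adjusted p = 0.474) at 29 °C against 22 °C, and at 6 °C against 22 °C it was 0.55 (adjusted p = 0.254). Mbl2 lies on chromosome 19 of GRCm38, from 30232942 to 30239687.

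Mbl1, the partner collectin, had its highest mean at 22 °C, 130.1 ± 20.1 CPM, with 106 ± 16.4 CPM for the cold group and 91.7 ± 17.8 CPM for the warm group (n = 4 each). Its log2 fold change at 29 °C against 22 °C was -0.51 (SE 0.171, adjusted p = 0.227), with library 9 at 118 CPM inside the 22 °C range. The count of Mbl2 was 2.16 to 4 times that of Mbl1 at 6 °C, 1.15 to 2.22 times at 22 °C and 1.23 to 2.39 times at 29 °C. The 6 °C libraries thus overlapped with both other groups in this ratio, which was not tested. Masp1 had log2 fold changes of -0.28 (adjusted p = 0.44) at 29 °C against 6 °C and -0.30 (0.46) against 22 °C. Masp2 had -0.14 (adjusted p = 0.683) and -0.04 (0.936). For Masp2, 54.9% of its exon bases lie opposite Tardbp, and because the use of strand in counting is not given, reads of the pair cannot be told apart.

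The contact system starts clotting in the test tube and releases bradykinin: factor XII (F12) and prekallikrein (Klkb1) activate each other, factor XI (F11) carries the signal on and kininogen (Kng1) is their carrier and the source of bradykinin. Klkb1 stood at 155, 131, 129 and 165 CPM in the 6 °C libraries, at 121, 125, 98.4 and 112 CPM in the 22 °C libraries and at 70.5, 91.3, 99.98 and 101 CPM in the 29 °C libraries. The 6 °C libraries all lay above those of both other groups, while library 7 at 22 °C lay among the 29 °C libraries. Means were 145 ± 18.1, 114 ± 11.7 and 90.7 ± 14.2 CPM (n = 4 each), in the order 6, 22 and 29 °C. From 6 °C to 29 °C the log2 fold change was -0.68 (SE 0.15, adjusted p = 0.0355), a level 1.6-fold lower, and the adjusted p was 0.00429 with the split term. It was -0.33 (adjusted p = 0.325) at 29 °C against 22 °C and 0.35 (adjusted p = 0.386) at 6 °C against 22 °C. Klkb1 lies on chromosome 8, from 45266689 to 45294859 on the minus strand. Of its exon bases, 43.2% are shared with Gm45753, which is listed at 0 in all libraries, so its counts may miss reads that fit both genes.

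F11 lies 4657 bases from Klkb1 on the same strand, and its log2 fold change at 29 °C against 6 °C was -0.35 (SE 0.224, adjusted p = 0.416), and its groups overlapped. F12 had -0.17 (SE 0.385, adjusted p = 0.857) and Kng1 -0.17 (SE 0.274, adjusted p = 0.792). All 4 contact genes were thus negative at 29 °C against 6 °C, and Klkb1 alone was called. The 95% intervals of the log2 fold change were wide for F12, -1.05 to 0.697, and for Kng1, -0.788 to 0.453. Kng1 shares 18% of its 50-base words with Kng2, so part of its reads may have been assigned to either.

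The terminal proteins form the membrane attack complex: C5, encoded by Hc, starts it, C6 and C8 (the chains C8a, C8b and C8g) extend it and C9 closes the pore. C9 stood at 331, 263, 245 and 243 CPM at 6 °C, at 276, 250.25, 244 and 210.3 CPM at 22 °C and at 216, 121, 175 and 142 CPM at 29 °C. All 29 °C libraries lay below all 6 °C libraries, and library 9, the highest at 29 °C, lay above library 8 at 22 °C. Mean levels were 270.4 ± 41.1, 245 ± 27.0 and 163 ± 41.7 CPM (n = 4 each). The log2 fold change at 29 °C against 6 °C was -0.73 (SE 0.188, adjusted p = 0.058), 1.66-fold lower, which missed the threshold. C9 passed with the split term (adjusted p = 0.00933), under DESeq2 (0.00519), under limma voom (0.0134), without H2-Ea-ps libraries (0.00724) and without library 9 (0.0313). The value for 29 °C against 22 °C was -0.59 (SE 0.188, adjusted p = 0.217), and 0.14 (adjusted p = 0.802) at 6 °C against 22 °C. C9 lies on chromosome 15, from 6445327 to 6498751 on the plus strand.

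Of the C8 chains, C8g stood at 127, 195, 159.5 and 185 CPM at 6 °C, at 109, 103, 125 and 143 CPM at 22 °C and at 99.01, 145, 117 and 152 CPM at 29 °C. Library 1 lay within the 22 °C range, and the other 6 °C libraries lay above it. Its log2 fold change at 6 °C against 22 °C was 0.47 (SE 0.181, adjusted p = 0.335), while without H2-Ea-ps libraries, which leaves 2 libraries at 22 °C, it was 0.75 and passed (adjusted p = 0.0174). C8a had 0.41 (SE 0.299, adjusted p = 0.49) at 29 °C against 6 °C, and C8b, which lies 11130 bases from C8a in the opposite orientation, had -0.40 (SE 0.311, adjusted p = 0.517). Hc stood at 1542 ± 289, 1806 ± 347 and 1410 ± 126 CPM at 6, 22 and 29 °C (n = 4 each), with -0.36 (adjusted p = 0.399) at 29 °C against 22 °C. C6 was at 38.9 ± 5.002, 38.5 ± 8.44 and 46.1 ± 9.57 CPM (n = 4 each), and its fold changes did not pass.

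Among the procoagulant factors, F13b and F9 had the lowest p in both comparisons with 29 °C. F13b encodes the carrier subunit of factor XIII, which cross-links fibrin, and F9 encodes factor IX, the protease lacking in haemophilia B. F13b stood at 183, 142, 195 and 161 CPM at 6 °C, at 201, 192, 145 and 129.8 CPM at 22 °C and at 91.1, 119, 114 and 131 CPM at 29 °C. The 29 °C libraries lay below all 6 °C libraries, and library 12 lay just above library 8. Mean levels were 170.1 ± 23.5, 167 ± 35.0 and 114 ± 16.8 CPM (n = 4 each). The log2 fold change was -0.58 (SE 0.177, adjusted p = 0.0968) at 29 °C against 6 °C and -0.55 (SE 0.177, adjusted p = 0.217) at 29 °C against 22 °C. The split term gave adjusted p-values of 0.015 and 0.0403 for these, and 0.0436 and 0.0848 with library 11 left out as well. For 6 °C against 22 °C it was 0.03 (95% interval -0.37 to 0.427).

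F9 stood at 187, 117, 168 and 132 CPM at 6 °C, at 159, 148, 159.8 and 131 CPM at 22 °C and at 114, 100.02, 118 and 94.1 CPM at 29 °C. All 29 °C libraries lay below all 22 °C libraries, and library 11 (118 CPM) lay above library 2 (117 CPM), the lowest at 6 °C. Its log2 fold change was -0.50 (SE 0.161, adjusted p = 0.11) at 29 °C against 6 °C and -0.48 (SE 0.161, adjusted p = 0.227) at 29 °C against 22 °C. It was called in the first of these with the split term (adjusted p = 0.0377). Between 6 °C and 22 °C it was 0.01 (95% interval -0.348 to 0.378). Of the other vitamin K-dependent proteases, F2, which encodes prothrombin, had 0.07 (SE 0.194, adjusted p = 0.882) at 29 °C against 6 °C, F7 had 0.03 (SE 0.169, adjusted p = 0.948) and F10 had -0.05 (SE 0.211, adjusted p = 0.93). F7 and F10 are neighbours 1498 bases apart on chromosome 8, and the count of F10 was 3.13 to 4.67 times that of F7 in every library. F5, the cofactor of factor X, had -0.27 (SE 0.211, adjusted p = 0.519).

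**Figure D3:**
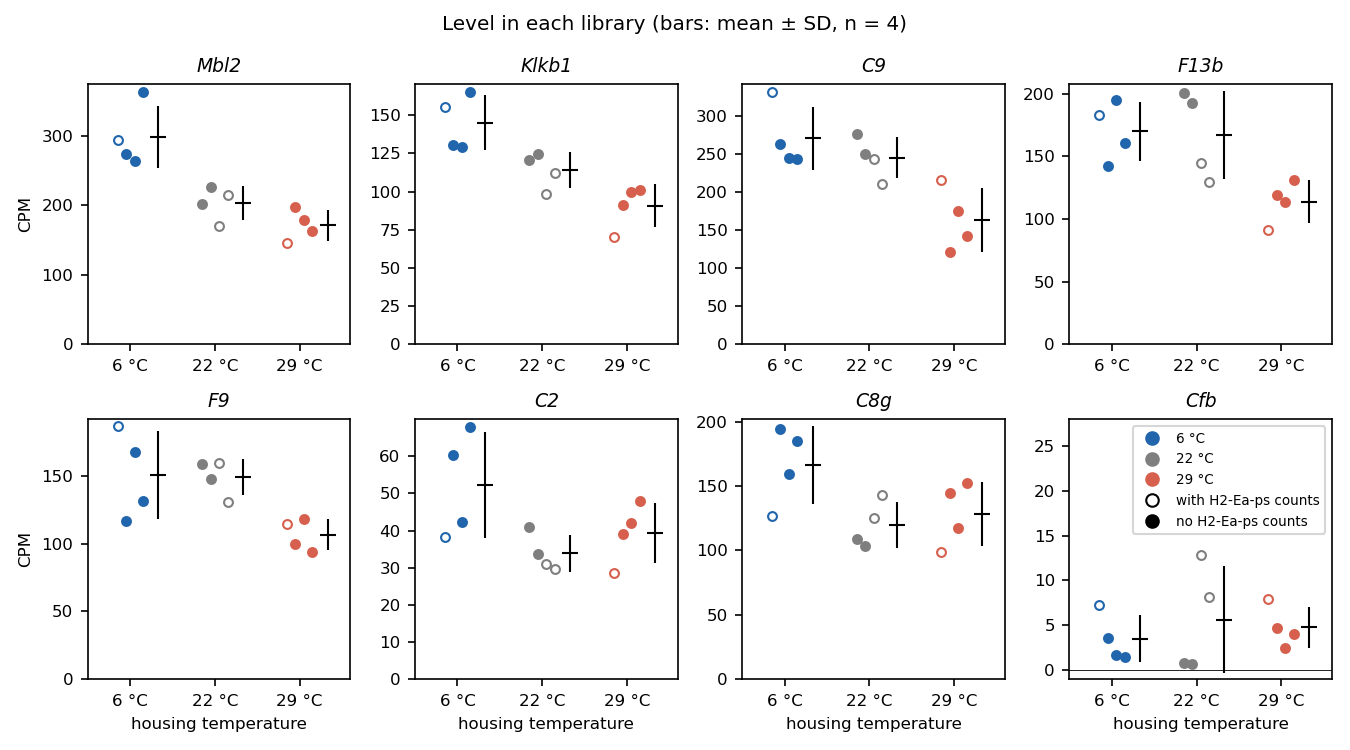
Level of 8 of the genes in each library by housing temperature, in CPM, with open circles for the 4 libraries with H2-Ea-ps counts and bars for mean ± SD (n = 4). In Mbl2 and Klkb1 the 6 °C libraries lie above both other groups, in C9 and F13b the 29 °C libraries lie below the 6 °C libraries, and in Cfb the open circles lie above the filled ones.

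The fibrinogen chains, substrate of thrombin and acute phase proteins of the liver, had their highest means at 22 °C. Fga stood at 8103 ± 1231, 10960 ± 2809 and 9787 ± 903 CPM at 6, 22 and 29 °C (n = 4 each). Fgb stood at 5428 ± 1145, 6915 ± 2002 and 5793 ± 478 CPM (n = 4 each). Fgg stood at 5772 ± 1114, 7957 ± 2462 and 6149.5 ± 792 CPM (n = 4 each). The 22 °C libraries differed among themselves: library 5 held 13619 CPM of Fga and library 7 held 13051 CPM, against 7899 and 9272 CPM in libraries 6 and 8. Library 4 was lowest in all 3 chains, with 6308 CPM of Fga.

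Log2 fold changes at 6 °C against 22 °C were -0.44 for Fga (95% interval -0.928 to 0.0564, adjusted p = 0.45), -0.35 for Fgb (-0.881 to 0.182, adjusted p = 0.567) and -0.46 for Fgg (-0.998 to 0.0713, adjusted p = 0.459). At 29 °C against 6 °C they were 0.27, 0.09 and 0.09, and at 29 °C against 22 °C they were -0.16, -0.26 and -0.37, with 0 of 3 called in each comparison by edgeR, DESeq2 or limma voom and 0 of 3 at an unadjusted p under 0.05. The 3 genes form 1 cluster on chromosome 3, where Fga lies 6513 bases from Fgb and 11026 bases from Fgg. Their proportions were steady: the count of Fga was 1.4 to 1.76 times that of Fgb and 1.19 to 1.79 times that of Fgg over all 12 libraries.

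The anticoagulants Serpinc1 (antithrombin), Serpind1 (heparin cofactor II), Proc (protein C) and Pros1 (its cofactor protein S) were not called in any comparison by edgeR, DESeq2 or limma voom, and Pros1 had an unadjusted p under 0.05 at 6 °C against each other temperature. The means of Pros1 were 86.7 ± 14.5, 67.3 ± 8.46 and 66.6 ± 10.7 CPM in the order 6, 22 and 29 °C (n = 4 each). Every 6 °C library lay above every 22 °C library, with log2 fold changes of 0.37 (SE 0.157, adjusted p = 0.382) at 6 °C against 22 °C and -0.38 (SE 0.157, adjusted p = 0.199) at 29 °C against 6 °C. Serpind1 stood at 486 ± 32.5, 419 ± 51.7 and 396 ± 54.5 CPM (n = 4 each), with -0.29 (SE 0.153, adjusted p = 0.313) at 29 °C against 6 °C. Proc, at 328 ± 19.9, 323 ± 18.6 and 333 ± 47.6 CPM (n = 4 each), had 0.02 with a 95% interval of -0.3 to 0.342. Serpinc1 had -0.22 (SE 0.274, adjusted p = 0.715), and 34.4% of its exon bases lie opposite Zbtb37.

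In the classical route C1r and C1s (C1ra and C1s1) cut C4 (C4b) and C2, which together form the C3 convertase. C2 stood at 38.3, 60.5, 42.3 and 68.0 CPM at 6 °C, at 40.9, 33.8, 31.0 and 29.8 CPM at 22 °C and at 28.6, 39.1, 42.1 and 47.8 CPM at 29 °C. Libraries 2 and 4 stood above all others, and library 1 at 6 °C lay inside the 22 °C range. The log2 fold change at 6 °C against 22 °C was 0.63 (SE 0.204, adjusted p = 0.281), and at 29 °C against 6 °C it was -0.41 (SE 0.203, adjusted p = 0.29). C2 shares 42.8% of its exon bases with Gm20547, an overlapping gene listed at 0, so its level is uncertain.

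C4b stood at 2022 ± 372, 1941 ± 428 and 2234 ± 326 CPM at 6, 22 and 29 °C (n = 4 each), with 0.14 (SE 0.208, adjusted p = 0.758) at 29 °C against 6 °C. C1s1, at 285 ± 46.8, 317 ± 61.1 and 282 ± 33.8 CPM, had -0.02 (SE 0.178, adjusted p = 0.969), and C1ra, at 60.9 ± 7.25, 60.1 ± 4.18 and 67.1 ± 9.48 CPM (n = 4 each), had 0.14 (SE 0.133, adjusted p = 0.614). These 3 have close copies that share their 50-base words: C4a with 35.2% of those of C4b, C1s2 with 24.3% of those of C1s1 and C1rb with 48% of those of C1ra. The copies held counts mainly in the 4 libraries that stand apart. C4a had 1256 to 1976 counts there and 19 to 51 in the other 8, C1s2 187 to 269 against 0 to 5, and C1rb 57 to 89 against 0 to 3. The levels of C4b, C1s1 and C1ra themselves overlapped between those 2 sets of libraries.

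C3, on which all 3 routes converge, stood at 19054 ± 3522, 18052 ± 4176 and 17048 ± 2618 CPM at 6, 22 and 29 °C (n = 4 each). Its log2 fold change at 29 °C against 6 °C was -0.16 (95% interval -0.679 to 0.358, adjusted p = 0.753). Cfb, factor B of the alternative route, was the rarest of the 37, at 3.47 ± 2.67, 5.58 ± 5.98 and 4.72 ± 2.31 CPM (n = 4 each). It ranged from 0.611 CPM in library 6 to 12.8 CPM in library 7, both at 22 °C. Its log2 fold change at 29 °C against 22 °C was -0.27 (SE 0.842, adjusted p = 0.909) and became 2.42 (adjusted p = 0.0114) without H2-Ea-ps libraries. Of its exon bases, 79.5% are shared with Gm20547, which is listed at 0, so its counts may miss reads that fit both genes. Cfb and C2 lie 85 bases apart.

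Of the inhibitors of complement, Cfi cuts C3b and C4b, C4bp is its cofactor, Serping1 blocks C1r, C1s and kallikrein, and Vtn holds back the pore. Vtn stood at 2208 ± 338, 2078 ± 330 and 2347 ± 321 CPM at 6, 22 and 29 °C, Serping1 at 935 ± 122, 929 ± 125 and 827 ± 102 CPM, Cfi at 610 ± 73.2, 718 ± 139.9 and 678 ± 91.1 CPM, and C4bp at 543 ± 44.2, 480 ± 86.6 and 554 ± 73.1 CPM (n = 4 each). Groups overlapped for all 4 in every comparison, and edgeR, DESeq2 and limma voom called 0 of 4, with 0 at an unadjusted p under 0.05. Their log2 fold changes lay between -0.177 and 0.154 at 29 °C against 6 °C. The inhibitors were the role with the narrowest range of fold changes after the fibrinogen chains in that comparison.

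The 4 libraries with H2-Ea-ps counts differed from the other 8 in 7 of the 37 genes with no overlap, given here as a description because the libraries were set apart from the data. Lower in all 4 were F2, F10, F12, Serpinc1 and C8b, and higher in all 4 were F11 and Cfb, while 30 genes overlapped. Among all genes tested, 4.78% were lower and 4.6% higher in all 4. F12 stood at 166 to 222 CPM in the 4 and at 374 to 549 CPM in the other 8, a mean 2.41-fold lower. C8b stood at 96.6 to 115 CPM against 133 to 251 CPM (1.84-fold lower), and Serpinc1 at 1047 to 1376 CPM against 1764 to 2476 CPM (1.66-fold lower). Cfb was 3.78-fold and F11 1.54-fold higher in the 4. The 4 libraries come from all 3 temperatures (1, 2 and 1 of them at 6, 22 and 29 °C), so they add spread within each group. Being unevenly divided, they can also shift fold changes against 22 °C. With the split term, F12 at 6 °C against 22 °C went from 0.57 to 0.22. Cfb at 29 °C against 22 °C went from -0.27 to 0.94, with no call in either fit. The median of the 37 in that comparison was -0.163 without the term and -0.147 with it.

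**Figure D4:**
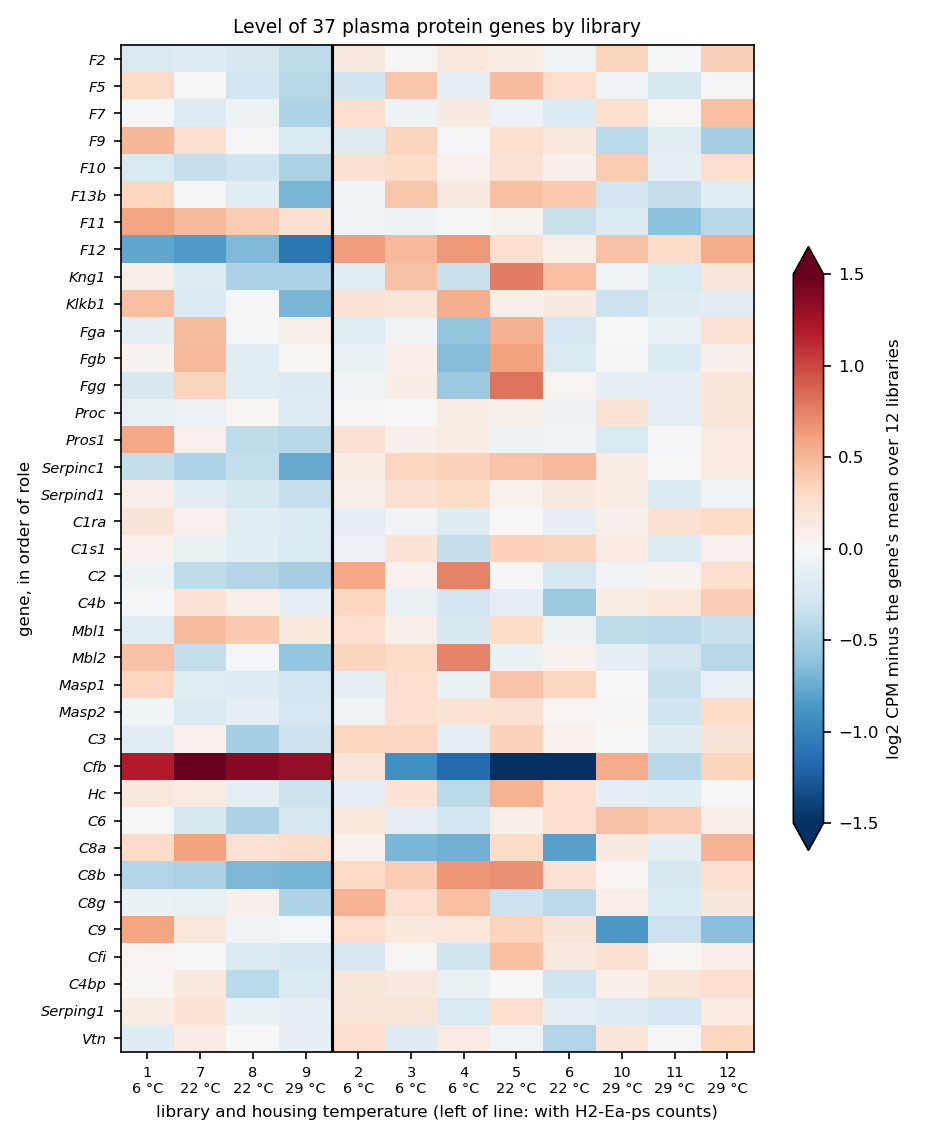
Log2 CPM of each of the 37 genes in each library minus the gene's mean over 12 libraries, with the 4 libraries with H2-Ea-ps counts to the left of the line. F12, Serpinc1 and C8b are low and F11 and Cfb high left of the line, and libraries 5 and 4 hold the highest and lowest values of Fgg.

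Ratios of counts between partner genes in the same library need no scaling between libraries. Those that separated the 4 libraries hold genes already seen to differ there, so they are a description and no further evidence of the division. The ratio of C8a to C8b was 6.24 to 8 in the 4 libraries and 1.45 to 4.54 in the other 8. The ratio of F12 to F11 was 1.86 to 2.33 against 5.51 to 9.4, and that of C4b to its copy C4a 17.3 to 19.4 against 390 to 1140. The ratio of Fga to Fgb did not separate the libraries, at 1.4 to 1.76 over all 12. Among the other 8 libraries, C8a to C8b was 4.03 to 4.54 at 29 °C in libraries 10, 11 and 12, above the 1.45 to 3.21 of the 6 °C and 22 °C libraries there, which was seen after the values were known and not tested.

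**Figure D5:**
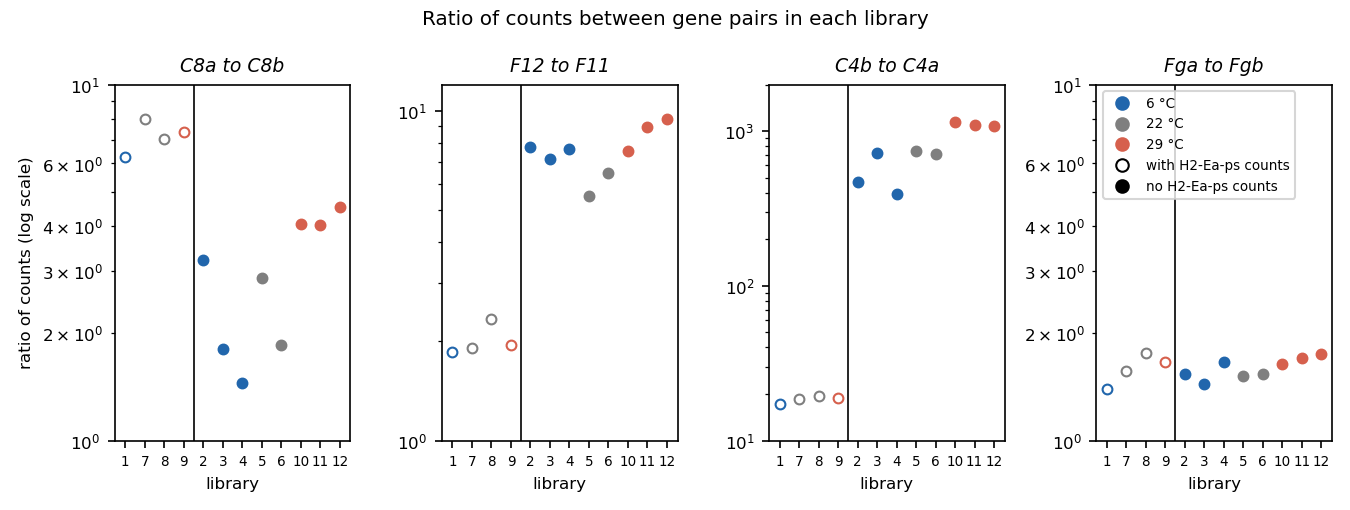
Ratio of counts between 4 pairs of genes in each library, on log axes, coloured by housing temperature, with the 4 libraries with H2-Ea-ps counts to the left of the line. C8a to C8b, F12 to F11 and C4b to C4a separate the 4 libraries from the other 8, and Fga to Fgb does not.

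Of other genes of these pathways, Plaur, Itgb2 and Lifr were called at 29 °C against 6 °C. Plaur, the urokinase receptor, rose, with a log2 fold change of 1.60 (SE 0.29, adjusted p = 0.0197), from 4.03 ± 1.13 to 12.2 ± 2.02 CPM. Itgb2, the beta chain of complement receptor 3 on leukocytes, rose by 1.16 (SE 0.241, adjusted p = 0.0294). Lifr, a receptor of the interleukin 6 family, fell by 0.97 (SE 0.222, adjusted p = 0.0388). Leaving out 1 library ended the call of Plaur for library 3, 4 or 10, of Itgb2 for 3, 4, 9, 10 or 11, and of Lifr for any of the 8 libraries compared. Adjusted p ranged over the alternatives from 2.21e-05 to 0.0696 for Plaur, 0.00058 to 0.0916 for Itgb2 and 0.00106 to 0.114 for Lifr.

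By list, 2 of 23 other coagulation and fibrinolysis genes rose and 0 fell (6, or 26.1%, at an unadjusted p under 0.05, median 0.136), and 1 of 33 other complement genes rose and 1 fell (10, or 30.3%, at an unadjusted p under 0.05, median -0.00453). Over all genes 1.13% rose, 1.39% fell and 19.4% had an unadjusted p under 0.05. Of 14 genes of the interleukin 6 pathway 1 fell (2, or 14.3%, at an unadjusted p under 0.05). Il6 itself was rare, with a mean of 0.742 ± 0.473 CPM in the cold group and 1.94 ± 0.776 CPM in the warm group (n = 4 each), a log2 fold change of 1.41 (adjusted p = 0.23). Of 7 genes of the vitamin K cycle and factor secretion, and of 14 hepatocyte transcription factors, edgeR called 0, with 0 at an unadjusted p under 0.05 in either list. The lowest p among these belonged to Nr5a2 (-0.34, adjusted p = 0.278) and Foxa2 (-0.41, adjusted p = 0.323) of the transcription factors, and to Lman1 (-0.39, adjusted p = 0.42), which carries factors V and VIII out of the endoplasmic reticulum, and Ggcx (0.12, adjusted p = 0.682), the vitamin K-dependent carboxylase. Nr5a2 passed once the split term was fitted (adjusted p = 0.0406).

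In the comparisons with 22 °C edgeR called 0 genes of these lists. At an unadjusted p under 0.05 there were, at 29 °C against 22 °C, 7 of 23 other coagulation, 10 of 33 other complement, 3 of 14 transcription factor, 2 of 14 interleukin 6 and 1 of 7 vitamin K genes, and at 6 °C against 22 °C 2, 0, 5, 0 and 1, beside 14.9% and 11.9% of all genes in these comparisons. Of the genes named here, DESeq2 called Lifr at 29 °C against 22 °C, and limma voom called 0. At 29 °C against 22 °C among the lowest p of each list were those that belonged to Vwf (0.83, adjusted p = 0.193), to Fcna (1.25, 0.134) and Cfp (1.09, 0.163), to Cebpa (0.89, 0.179) and Foxa3 (0.75, 0.26), to Lifr (-0.88, 0.163) and Il6st (-0.42, 0.259), and to Furin (0.41, 0.326) and Vkorc1 (-0.59, 0.381). At 6 °C against 22 °C these belonged to Plaur (-0.74, 0.339), to Fcna (0.56, 0.423) and C1qc (0.55, 0.432), to Cebpa (0.98, 0.228) and Foxa2 (0.81, 0.249), to Osmr (-0.50, 0.497) and Tyk2 (0.25, 0.509), and to Furin (0.48, 0.342) and Nqo1 (0.43, 0.666). Cebpa, which encodes C/EBP alpha, stood at 293 ± 65.2, 148 ± 55.5 and 274 ± 45.1 CPM at 6, 22 and 29 °C (n = 4 each). It was lowest in libraries 5 and 6, at 108 and 99.2 CPM, the libraries lowest in Gm26917.

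Markers of other cells are given beside these values, where 19.4% of all genes had an unadjusted p under 0.05. All 12 Kupffer cell and macrophage markers had a positive fold change at 29 °C against 6 °C (median 0.618, 0 called, 3 at an unadjusted p under 0.05), with a summed level of 586 to 1085 CPM at 6 °C and 834 to 1547 CPM at 29 °C. All 9 neutrophil markers were positive too (median 1.41, 0 called, 1 at an unadjusted p under 0.05), summing to 15.5 to 938 CPM at 6 °C, 387 to 1864 CPM at 22 °C and 592 to 3030 CPM at 29 °C, with library 9 highest. The 7 erythroid markers had a median of 1.18 (0 called, 4 at an unadjusted p under 0.05) and summed to 113.5 to 217 CPM at 6 °C and 118 to 473 CPM at 29 °C. Medians were 0.236 for 8 liver endothelial and 0.119 for 9 stellate cell and fibroblast markers, 0.721 for 6 cholangiocyte and 0.265 for 7 lymphocyte markers tested. No macrophage or neutrophil marker was at 0 in any library. The intestinal gene Akp3 stood at 278 CPM in library 11 and at 0 in the other libraries, and Sis and Reg3g too had counts in library 11 only, while Fabp6 and Defa24 of the same list were at 0 in all 12. The part of these cells in the values of the 37 genes was not tested.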

How the data were processed

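The table that the authors deposited holds unnormalized whole-number counts for 12 libraries of 3 groups, and each column was matched to its sample by library name. The submitters' processing notes list the build GRCm38 with the tools STAR 2.6.1a, bcl2fastq and DESeq2 1.44.0, without roles. Which program counted the reads, and whether by strand, is not given in the sources used here. The 37 genes, the other lists and the tests were chosen with earlier results of these data known.

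The test was edgeR 4.0.16 under R 4.3.3 on these counts (TMM, filterByExpr by group, robust quasi-likelihood fit, 3 group means, 9 residual degrees of freedom, two-sided). All 37 genes passed the low-count filter, as did 15006 genes in all. The split term marks libraries 1, 7, 8 and 9, where H2-Ea-ps reached 1 CPM, which are not groups of the study. The SE is the fold change divided by the square root of the F statistic. The common biological coefficient of variation was 0.321. The test was checked on simulated counts of 14731 genes for 29 °C against 6 °C, where 100 well expressed genes were changed at each fold. It recovered 8% of 1.5-fold and 54% of 2-fold changes with 4 false calls. In that setting, differences under 2-fold were often below what 4 libraries a group can show. Recovery depends on the share of genes changed and on their level, so these rates need not hold in the real data or for rare genes such as Cfb. Of 18 replicate pairs, all were further apart than counting error allows (chi-square of 13.8 to 150 per degree of freedom). The 95% intervals of fold changes come from the SE and 9 residual degrees of freedom, and so include the spread between libraries. Floors from counts cover counting error only.

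Positions, exon lengths and overlaps came from GENCODE vM21 (GRCm38), which matched 54587 of 55421 identifiers, and promoters from RefSeq (GRCm38.p6). Of symbols listed more than once (113), none is among the 37. Full values are given for genes called and for the 3 lowest p of each comparison, other members by level and fold change, and of the other lists each called gene and the 2 lowest p. Tf and Masp3, named in 2 lists, were not analysed here. A few further genes from the other lists are not reported here, though list counts include them. Alternatives were DESeq2 size factors, upper-quartile factors, library sizes leaving out mitochondrial genes and the 10 most abundant, no low-count filter, a filter of 1 CPM in 4 libraries, DESeq2 1.42.0, limma 3.58.1 voom with sample quality weights, each pair of groups fitted by itself, the split term with and without library 11, the other 8 libraries by themselves, libraries 3, 5 and 6 left out, each library left out, and a minimum absolute log2 fold change of 1.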

Additional observations from a re-analysis of the deposited data

Results flagged for a closer look

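Among 111 groups of 4 libraries (37 genes at 3 temperatures), 4 held a library far from its group by Dixon's test, which flags about 1 in 20 groups by chance. At 6 °C, library 1 had the highest level of F11, 109.6 CPM against 69.2 to 71.6 CPM in the others, and the lowest level of F12, 204 CPM against 493.9 to 549.5 CPM. Library 1 is among the 4 libraries with H2-Ea-ps counts, and F11 and F12 are among the 7 genes that separate those libraries. At 29 °C, library 9, of the same 4, had the highest level of Mbl1, 118.3 CPM against 81.31 to 84.72 CPM. At 29 °C, library 12 had the highest level of Fgg, 7322 CPM against 5584 to 5870 CPM.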

How the results depend on the processing

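Over 25 alternatives, 2775 results of the 37 genes gave 2739 with the same direction or side of the threshold, 16 lost calls, 19 gained calls and 1 call of the other sign, and 151 of the first kind changed sign with neither fit calling the gene. That call was Cfb at 29 °C against 22 °C, with a log2 fold change of 2.42 without H2-Ea-ps libraries (the 8 with 0 counts of it), where 22 °C has 2. At 29 °C against 6 °C, the 2 calls among the 37 became 5 under DESeq2, 5 with the split term, 5 with it and no library 11, 0 with libraries 3, 5 and 6 left out and 0 with a minimum absolute log2 fold change of 1. The 379 genes called in all became 1184 under DESeq2, 1090 under limma voom, 1884 with the split term, 1305 with it and no library 11, 1504 without H2-Ea-ps libraries, 134 with libraries 3, 5 and 6 left out and 196 with the minimum fold. At 29 °C against 22 °C, the 0 calls among the 37 became 1 with the split term and 5 without H2-Ea-ps libraries, and the 0 genes called in all became 15 without a low-count filter, 319 under DESeq2, 5 under limma voom, 516 with the split term, 100 with it and no library 11 and 2594 without H2-Ea-ps libraries. At 6 °C against 22 °C, the 0 calls among the 37 became 1 under DESeq2 and 1 without H2-Ea-ps libraries, and the 5 genes called in all became 163 under DESeq2, 55 with the split term, 36 with it and no library 11, 1015 without H2-Ea-ps libraries, 0 with libraries 3, 5 and 6 left out and 3 in the 8 libraries compared. Leaving out each library in turn gave 0 to 2 calls among the 37 and 41 to 439 in all at 29 °C against 6 °C, 0 to 0 and 0 to 78 at 29 °C against 22 °C, and 0 to 0 and 3 to 7 at 6 °C against 22 °C. The median log2 fold change of the 37 then lay between -0.254 and -0.0674, between -0.219 and -0.0101, and between -0.0125 and 0.091, in the same order. The causes of these changes were not tested. No paired analysis was possible because the replicate numbers 1 to 12 are not shared by the groups.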
